A study of Mus musculus with 2 samples.

Results

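Interferon-stimulated genes and interferon regulatory factors (IRFs) were described in mouse cells labelled intestinal stem cells, in a Stat6 knockout (KO) culture and a wild type (WT) one. The set is a list of gene symbols, drawn up with earlier results of these data known. It holds 44 genes of the 18944 listed in both deposited tables: antiviral effectors, cytosolic sensors of foreign nucleic acid, interferon-induced GTPases and IRFs. All 44 were found, and 36 of them reached 1 FPKM (fragments per kilobase, relative to all mapped reads) in at least 1 library, against 12079 of all 18944 genes.

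RNA was sequenced from 1 Stat6 KO library and 1 WT library, so no difference given here has a replicate check, and each compares these 2 libraries. Both cultures are labelled intestinal stem cells, both carry the Lgr5GFP-CreERT2 allele, which puts green fluorescent protein and an inducible Cre under the control of the stem cell gene Lgr5, and both came from mice aged 2 months. The KO cells had received a lentivirus with CRISPR/Cas and guides against Stat6 and were then screened. The sources used here do not say whether the WT culture was given a control virus or whether the KO cells are 1 clone. Medium held EGF, R-spondin 1 and the kinase inhibitor Y27632 in both. The epithelial gene Epcam was abundant, at 530.9 FPKM in KO and 577 FPKM in WT, whereas Lgr5 was at 1.88 FPKM in KO and 1.79 in WT.

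Interferons are cytokines that put cells into an antiviral state. Type I and type III interferons act through the kinases JAK1 and TYK2 on a complex that holds STAT2 and IRF9 and binds a promoter sequence called the interferon-stimulated response element (ISRE). Type II interferon (interferon gamma) acts through a palindrome called the gamma-activated site (GAS). Intestinal epithelium is a main target of type III interferon. STAT6, the factor targeted here, is activated by IL-4 and IL-13 and binds a similar one with 1 more base in its middle.

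Most of the interferon genes stood slightly higher in the Stat6 KO library. Of the 36 measured genes 32 had a higher FPKM in KO, or 88.9%, whereas 30.3% of all 12079 measured genes did. The other 4, Ifit2, Bst2, Irf3 and Irf5, were lower, as were 69.6% of all genes, although Ifit2 turned positive under 2 other scalings. Ifit3, Herc6 and Rsad2 reached 1 FPKM in KO only, so the minimum level fixed their direction. Among all genes, those that reached it in WT only could likewise count only as lower. Differences were small: with the log2 ratio defined as log2((KO FPKM + 1)/(WT FPKM + 1)), the median of the 36 genes was 0.31, against -0.18 for all measured genes. A trimmed-mean factor, which sets the bulk of genes level, moved the first to 0.50 and the second to -0.003. Only Oasl2 and Igtp, 2 of 36, were at least 2-fold higher on that scale, where 2.44% of all genes were, and 0 of 36 were at least 2-fold lower, where 2.18% were. At 1.5-fold, 6 of 36 were higher, against 5.7% of all genes, and 0 were lower, against 11.4%. With the trimmed-mean factor 12 of 36 were at least 1.5-fold higher. The 6 without it were Oasl2, Igtp, Ifit1, Oas3, Rtp4 and Ifih1. With 1 FPKM required in both libraries 33 genes of the set remained. Their median log2 ratio, without the factor, was 0.31, against -0.17 for all genes that passed.

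**Figure D1:**
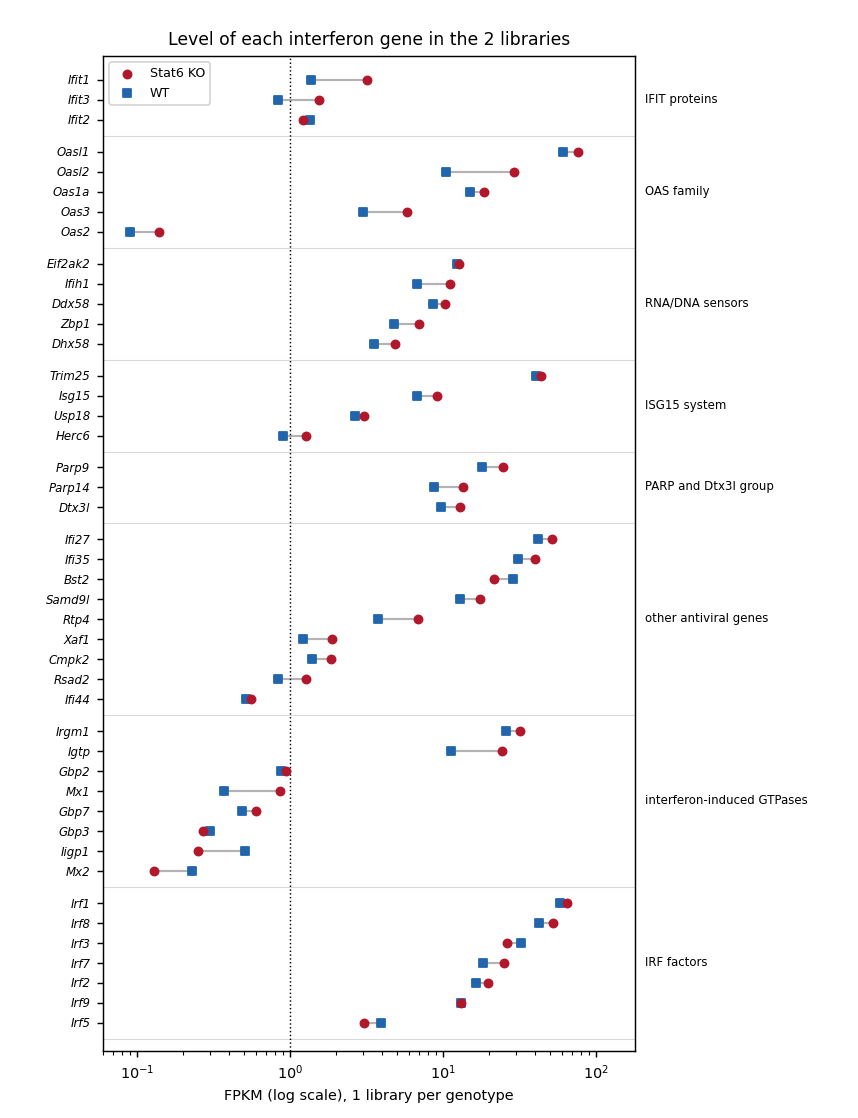
Level of each of the 44 interferon genes in FPKM (horizontal, log scale) in the Stat6 KO library (red circles) and the WT library (blue squares), grouped by role and ordered by the KO level; the dotted line is 1 FPKM. Of the 36 genes that reach the line in at least 1 library, 32 have the KO circle to the right of the WT square. Ifit3, Herc6 and Rsad2 reach the line in KO only.

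The sequences that interferon factors are known to bind could be looked for in promoters, taken from RefSeq on build GRCm38.p6 as 250 bases before and 50 bases after each annotated gene start. The deposited values were made on mm9, so these coordinates belong to the sequences alone. Windows were found for 33 of the 44 genes and for 14547 genes of the tables. The ISRE core was searched as GAAANNGAAA on both strands, and adjacent matches may overlap. It was present in 16 of the 33 genes (48.5%) and in 3.71% of all genes with a window. The GAS palindrome, TTCNNNGAA, was present in 10 of 33 (30.3%) against 8.52% of all, and the STAT6-type palindrome, TTCNNNNGAA, in 5 of 33 (15.2%) against 6.70% of all. The 5 genes with the STAT6-type letters were Ifit2, Oas1a, Dtx3l, Gbp3 and Irf9. A match of letters is not evidence of binding.

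The 8 stretches printed here run from base -130 to base -11 before the gene start, 120 bases each, on the gene's own strand, and show how the core is placed in the genes that the following results turn on. Capitals mark ISRE core and GAS matches. Isg15 holds 3 overlapping ISRE cores in 22 bases. In Ifit1 and Ifit3 the core lies on the opposite strand and so reads as its reverse complement. Igtp has a GAS match followed by an ISRE core, and Irf1 has a GAS match alone. Oasl2, which had the highest log2 ratio of the set, has neither motif in its window.
Isg15 (chr4:156200829-156200948, minus strand): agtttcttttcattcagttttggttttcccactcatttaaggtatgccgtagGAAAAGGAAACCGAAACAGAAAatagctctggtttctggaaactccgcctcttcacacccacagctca
Ifit1 (chr19:34640759-34640878, plus strand): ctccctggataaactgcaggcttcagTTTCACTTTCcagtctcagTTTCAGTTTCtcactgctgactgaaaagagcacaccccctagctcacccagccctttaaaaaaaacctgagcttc
Ifit3 (chr19:34583399-34583518, plus strand): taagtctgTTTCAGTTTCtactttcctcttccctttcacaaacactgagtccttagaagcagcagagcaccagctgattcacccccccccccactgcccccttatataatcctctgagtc
Oas3 (chr5:120777670-120777789, minus strand): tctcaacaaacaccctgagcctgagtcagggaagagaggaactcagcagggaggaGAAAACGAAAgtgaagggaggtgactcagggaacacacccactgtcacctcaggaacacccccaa
Igtp (chr11:58199426-58199545, plus strand): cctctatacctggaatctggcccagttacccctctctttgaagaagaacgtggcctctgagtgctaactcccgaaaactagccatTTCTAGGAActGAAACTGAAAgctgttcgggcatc
Irgm1 (chr11:48871431-48871550, minus strand): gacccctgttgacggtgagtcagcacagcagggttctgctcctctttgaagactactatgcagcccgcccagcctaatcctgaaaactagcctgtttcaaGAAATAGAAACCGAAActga
Irf1 (chr11:53769884-53770003, plus strand): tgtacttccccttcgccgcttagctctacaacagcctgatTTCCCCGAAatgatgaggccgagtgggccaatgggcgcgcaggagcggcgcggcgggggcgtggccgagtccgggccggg
Oasl2 (chr5:114896804-114896923, plus strand): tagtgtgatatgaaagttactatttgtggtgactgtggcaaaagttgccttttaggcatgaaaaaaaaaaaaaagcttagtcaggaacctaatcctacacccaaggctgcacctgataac

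**Figure D2:**
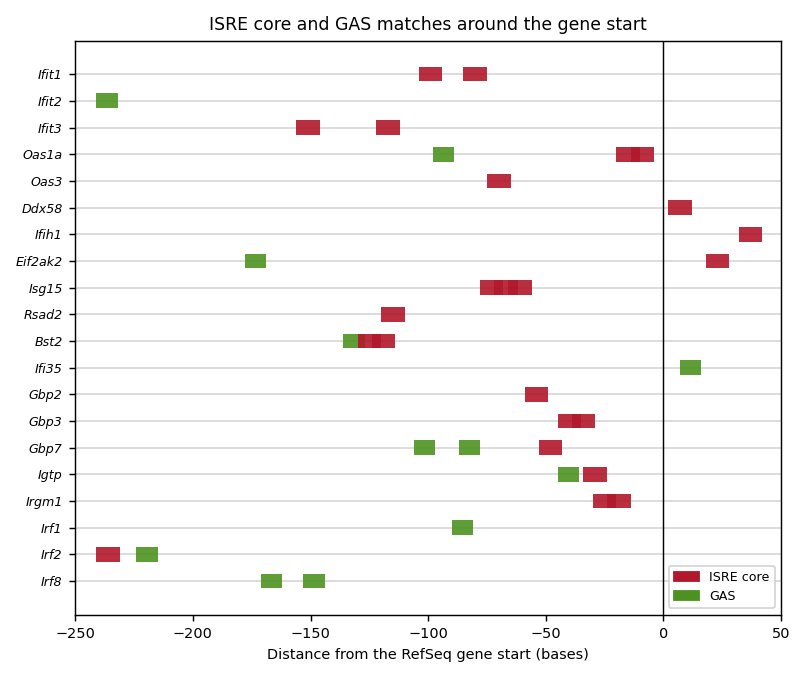
Place of ISRE core (red) and GAS (green) matches in the promoter windows of the 20 interferon genes that hold at least 1 in their first listed window, by distance from the RefSeq gene start in bases (horizontal). ISRE core matches before the start reach back to base -156 in Ifit3 and to base -241 in Irf2, and those of Ddx58, Ifih1 and Eif2ak2 lie after the start.

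Within the set, log2 ratios of genes with and without the ISRE core overlapped. The 13 measured genes with the core had a median of 0.32, from -0.40 for Bst2 to 1.06 for Igtp, and the 16 without it 0.28, from -0.29 for Irf3 to 1.39 for Oasl2. For the other 2 motifs the ranges overlapped too, and the medians stood the other way round. With GAS the median was 0.25 in 9 measured genes, and without it 0.35 in 20. With the STAT6-type letters it was 0.15 in 4 measured genes, and without them 0.31 in 25. Outside the set, 335 measured genes with the core had a median log2 ratio of -0.14, and 9179 genes without it -0.18. A higher FPKM in KO was seen in 31.04% of those with the core and 30.05% of those without.

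The tables hold no read counts, so depth was estimated from the steps between low FPKM values of short RNA genes. It came to about 20000000 reads in KO and 19900000 in WT, whereas the labels state 59000000 reads per library as the average, and which of these underlies the FPKM values is not known. With the estimated depths and GENCODE transcript lengths, each FPKM was turned into approximate reads, and the KO to WT ratio of FPKM, without a pseudocount, received an exact binomial 95% interval. These intervals cover counting error only, not differences between cultures. They are set against an unscaled ratio of 1, although 69.6% of all measured genes had a lower FPKM in KO. The trimmed-mean factor of 1.15 would raise each ratio with its interval, and so move some genes between the groups that follow. No intervals were computed for all genes, so no share of them stands beside these counts. Of the 36 measured genes, 28 had an interval wholly above 1, 3 wholly below 1 (Bst2, Irf3 and Irf5), and 5 had one that held 1 (Ifit2, Usp18, Eif2ak2, Cmpk2 and Irf9). The 28 include Ifit3, Herc6 and Rsad2, which reached 1 FPKM in KO only, so the minimum level fixed their direction. At a doubled depth, or at the average that the labels state, intervals are narrower, and Cmpk2 moved to the first group, which then held 29 genes. The ratios ran from 0.751 for Bst2 to 2.77 for Oasl2, with a median of 1.33.

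**Figure D3:**
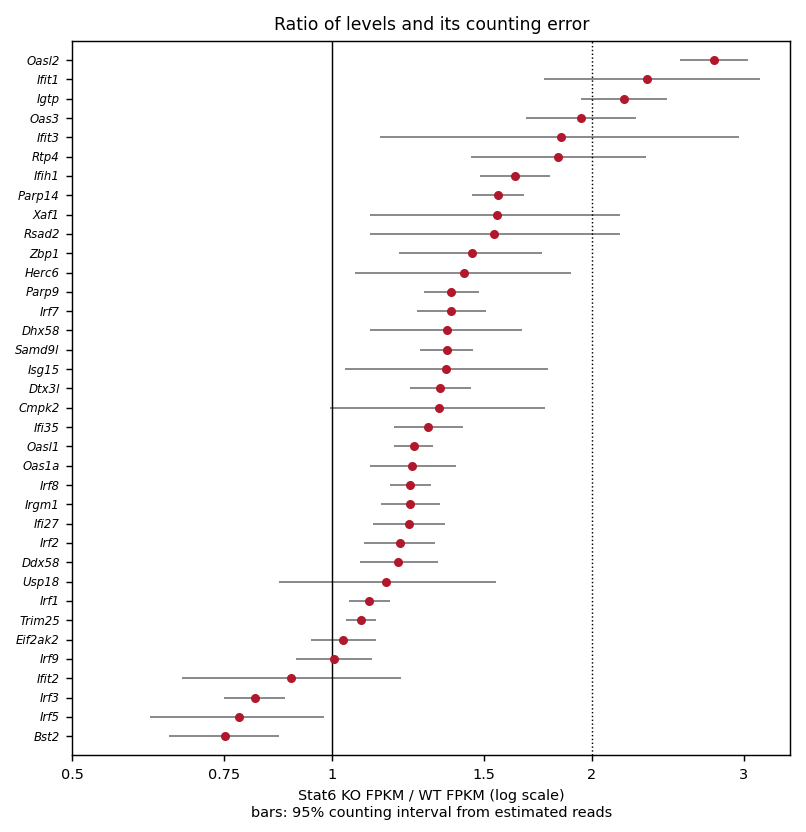
Ratio of the Stat6 KO FPKM to the WT FPKM (horizontal, log scale) for the 36 measured interferon genes, with 95% counting intervals from estimated reads as bars; the solid line is a ratio of 1 and the dotted line a ratio of 2. At this estimated depth and without scaling, only the interval of Oasl2 lies wholly above 2 (at the labels' depth that of Igtp does too). Those of Bst2, Irf3 and Irf5 lie wholly below 1.

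The IFIT proteins bind viral RNA that lacks the cell's own cap marks, and their genes are among the most inducible by interferon. Here they were low in both libraries. Ifit1 (Entrez gene 15957) was at 3.18 FPKM in KO and 1.37 FPKM in WT, a log2 ratio of 0.82. That is about 167 reads in KO and 71 in WT, a ratio of 2.32 with an interval of 1.76 to 3.13. Ifit3, which stabilizes the IFIT complex in human cells, was at 1.55 FPKM in KO and 0.84 in WT (0.47). Ifit2 did not follow them, at 1.22 FPKM in KO and 1.36 in WT (-0.09). Ifit3 has a near-identical copy in the mouse genome, so its value is uncertain.

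Oligoadenylate synthetases sense double-stranded RNA and make a messenger that activates RNase L, and the OAS-like members carry added ubiquitin-like domains. All 4 measured genes of the family were higher in KO, where 30.3% of all measured genes were, with a median log2 ratio of 0.54. Oasl2 (Entrez gene 23962) was at 29.1 FPKM in KO and 10.5 FPKM in WT, a log2 ratio of 1.39, rank 143 from the top of 12079 genes. Its ratio of 2.77 had an interval of 2.53 to 3.04. Its neighbour in the genome, Oasl1, which in mice limits translation of Irf7, was the highest gene of the whole set in level, at 76.2 FPKM in KO and 61.3 in WT, yet differed less (0.31). Oas3, the long form, was at 5.85 FPKM in KO and 3.01 in WT (0.77). Oas1a, which has several close copies and is therefore uncertain, was at 18.5 FPKM in KO and 14.96 in WT (0.29). Oas2, next to Oas3 in the genome, stayed under 1 FPKM, at 0.14 in KO and 0.09 in WT.

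Among the sensors, Ifih1, which encodes MDA5, the sensor of long double-stranded RNA, differed most. It was at 11.1 FPKM in KO and 6.78 FPKM in WT, a log2 ratio of 0.63 and a ratio of 1.63 with an interval of 1.49 to 1.79. Ddx58, which encodes RIG-I and detects RNA ends with a triphosphate, was at 10.3 FPKM in KO and 8.66 in WT (0.23). Dhx58, which encodes LGP2, the regulator of both, was at 4.85 FPKM in KO and 3.57 in WT (0.36). The 3 receptors thus stood in the order Ifih1, Ddx58, Dhx58 in the KO library, and Ddx58, Ifih1, Dhx58 in the WT library. Zbp1, a sensor of Z-form nucleic acid that can start necroptosis, was at 6.97 FPKM in KO and 4.80 in WT (0.46). Eif2ak2, which encodes the kinase PKR, was nearly level, at 12.7 FPKM in KO and 12.3 in WT (0.04). The role's median log2 ratio was 0.36, with 5 of 5 genes higher in KO, where 30.3% of all measured genes were. Past 2-fold were 0 of 5, where 2.44% of all genes were higher and 2.18% lower.

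ISG15 is a ubiquitin-like protein that interferon-induced enzymes attach to other proteins. Isg15 was at 9.18 FPKM in KO and 6.78 in WT, a log2 ratio of 0.39 and a ratio of 1.35 with an interval of 1.03 to 1.78. Herc6, the mouse ligase for ISG15, was at 1.28 FPKM in KO and 0.90 in WT (0.26). Usp18, which removes ISG15 and dampens the type I receptor, was at 3.06 FPKM in KO and 2.65 in WT (0.15), within counting error. Trim25, a ubiquitin ligase linked to RIG-I, was far more abundant, at 43.6 FPKM in KO and 40.3 in WT (0.11). None of the 4 passed 1.5-fold, where 5.7% of all genes were higher and 11.4% lower, and their median was 0.21.

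All 3 genes of the PARP group were higher in KO, where 30.3% of all measured genes were, with a median log2 ratio of 0.44. PARP9 and DTX3L form a complex with ubiquitin ligase activity, and PARP14 is an ADP-ribosyltransferase with macrodomains. Parp14 was at 13.6 FPKM in KO and 8.75 FPKM in WT, a log2 ratio of 0.58, just under the 1.5-fold line. Parp9 was at 24.7 FPKM in KO and 18.0 in WT (0.44), and Dtx3l at 13.0 in KO and 9.71 in WT (0.38). All 3 intervals lay above 1. The genes lie next to each other, and Parp9 and Dtx3l overlap in the annotation. The sources used here do not say whether reads were counted by strand, so reads of that pair may not be fully told apart.

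Of the other antiviral genes, 7 of 8 measured ones were higher in KO, where 30.3% of all measured genes were. The 7 include Rsad2, which reached 1 FPKM in KO only, so the minimum level fixed its direction. The median log2 ratio of the 8 was 0.34. Rtp4, a receptor transporter protein that interferon induces, was at 6.87 FPKM in KO and 3.76 FPKM in WT (0.73), a ratio of 1.83 with an interval of 1.45 to 2.31. Samd9l, a growth-restraining antiviral factor, was at 17.5 FPKM in KO and 12.9 in WT (0.41). Xaf1, a pro-apoptotic antagonist of XIAP, was at 1.88 FPKM in KO and 1.21 in WT (0.38), and Ifi35 at 40.2 in KO and 31.1 in WT (0.36). Rsad2, which encodes viperin, and its neighbour Cmpk2, a mitochondrial nucleotide kinase, were low in both libraries. Rsad2 was at 1.28 FPKM in KO and 0.83 in WT (0.32), and Cmpk2 at 1.85 in KO and 1.39 in WT (0.25). Ifi27 was at 51.4 FPKM in KO and 41.9 in WT (0.29), and Ifi44 stayed under 1 FPKM at 0.56 in KO and 0.52 in WT.

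Bst2 went the other way. It encodes tetherin, which holds budding virus particles at the cell surface. It was at 21.7 FPKM in KO and 28.8 FPKM in WT, a log2 ratio of -0.40, the lowest of the 36 genes. Its ratio of 0.751 had an interval of 0.647 to 0.867. Relative to the median of all genes its difference was -0.22, so it was the only measured gene outside the IRFs that stood below that median.

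Interferon-induced GTPases were split by level. Igtp (Entrez gene 16145), which encodes the immunity-related GTPase IRGM3 and acts on vacuoles of intracellular parasites, was at 24.5 FPKM in KO and 11.2 FPKM in WT. Its log2 ratio was 1.06, rank 250 of 12079, and its ratio of 2.18 had an interval of 1.94 to 2.44, or 2.04 to 2.33 at the depth that the labels state. Irgm1, a regulator of the same GTPase family that also serves autophagy, was at 31.7 FPKM in KO and 25.8 in WT (0.29). The remaining 6 genes were under 1 FPKM in both libraries. Mx1, whose product is non-functional in most laboratory mouse strains, was at 0.86 FPKM in KO and 0.37 in WT, and Mx2 at 0.13 in KO and 0.23 in WT. Of the guanylate-binding proteins, which attack the membranes around intracellular pathogens, Gbp2 was at 0.95 FPKM in KO and 0.87 in WT. Gbp3 was at 0.27 FPKM in KO and 0.30 in WT, and Gbp7 at 0.60 in KO and 0.49 in WT. Iigp1, an IRG effector strongly induced by interferon gamma, was at 0.25 FPKM in KO and 0.51 in WT, about 15 reads in KO and 31 in WT. Its ratio of 0.490, with an interval of 0.242 to 0.919, stood on the opposite side from that of Igtp.

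**Figure D4:**
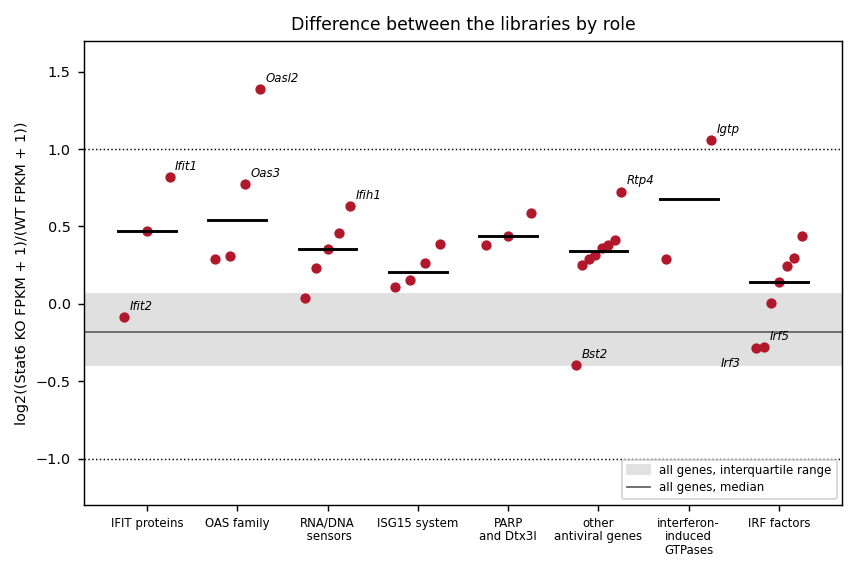
Log2 ratio of Stat6 KO to WT (vertical, from FPKM + 1) of the 36 measured interferon genes by role; each point is a gene, black bars are role medians, the grey band is the interquartile range of all 12079 measured genes and the grey line their median of -0.18. Role medians lie between 0.14 for the IRFs and 0.67 for the GTPases, of which 2 were measured.

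The IRFs, transcription factors that share a DNA-binding domain, had a median log2 ratio of 0.14, the lowest of the roles at these settings. With a pseudocount of 5 the ISG15 system was lower, and with no minimum level the GTPases were. At the main settings none of the 7 IRFs passed 1.5-fold, where 5.7% of all genes were higher and 11.4% lower. Irf7 passed it with the trimmed-mean factor (0.63) and with all genes centred at 0 (0.62). Irf1, an activator induced through GAS, was the most abundant at 64.6 FPKM in KO and 58.4 FPKM in WT (0.14). Irf8, best known from myeloid cells, came next at 52.4 in KO and 42.5 in WT (0.30). Irf7, the interferon-inducible factor that amplifies type I interferon production, had the highest log2 ratio of the family, 0.44, at 24.98 FPKM in KO and 18.2 in WT. Irf2, which mostly opposes Irf1, was at 19.8 FPKM in KO and 16.5 in WT (0.25). Irf9, which binds DNA in a complex with STAT2, was level, at 13.2 FPKM in KO and 13.1 in WT (0.01).

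Irf3 and Irf5 were the IRFs on the lower side. Irf3, the constitutive factor that sensors activate, was at 26.2 FPKM in KO and 32.3 in WT (-0.29), a ratio of 0.813 with an interval of 0.749 to 0.883. Irf5, a factor of inflammatory cytokine genes, was at 3.07 FPKM in KO and 3.94 in WT (-0.28). Relative to the median of all genes they stood at -0.11 and -0.10, close to it. From the highest level to the lowest, the IRFs ran Irf1, Irf8, Irf3, Irf7, Irf2, Irf9 and Irf5, in KO and in WT alike. With 1 library each, no spread is known by which to part neighbours in that order.

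The ligands, receptors and adaptors of the interferon pathway were read from a list of their own. Of 38 listed pathway genes 34 were in the tables and 26 were measured. Their median log2 ratio was -0.07, against -0.18 for all measured genes. With the trimmed-mean factor these became 0.11 and -0.003. None of the 26 passed 2-fold in either direction, where 2.44% of all measured genes were higher and 2.18% lower. Of 9 interferon ligands on the list 5 were found. Ifna1, Ifna2, Ifna4 and Ifne were not, so no interferon alpha gene of the list could be read. The 5 found were near 0 in both libraries. Ifnb1, Ifnl2 and Ifnk were at 0 in both, Ifng at 0 in KO and 0.04 FPKM in WT, and Ifnl3 at 0.18 in KO and 0.37 in WT. The type I receptor chains were at 10.5 FPKM in KO and 11.7 in WT (Ifnar1) and 13.4 in KO and 15.2 in WT (Ifnar2). The type III receptor chain Ifnlr1 was at 8.85 in KO and 10.2 in WT, and its partner Il10rb at 41.4 in KO and 33.9 in WT. The type II chains were the most abundant, Ifngr1 at 145.7 FPKM in KO and 120.4 in WT and Ifngr2 at 70.7 in KO and 64.0 in WT.

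Stat2, itself interferon-stimulated, was on the higher side, at 9.18 FPKM in KO and 7.35 FPKM in WT (0.29). Of the kinases, Jak2 was at 24.5 FPKM in KO and 18.4 in WT (0.39), Jak1 at 29.8 in KO and 30.9 in WT (-0.05), and Tyk2 at 9.98 in KO and 13.2 in WT (-0.37). Of the 26 measured pathway genes 1 was at least 1.5-fold higher, against 5.7% of all genes, and 1 lower, against 11.4%. The higher one was Ticam1, the adaptor of TLR3, at 47.1 FPKM in KO and 30.5 in WT (0.61). The lower one was Mb21d1, which encodes the DNA sensor cGAS, at 2.41 in KO and 4.92 in WT (-0.80). Stat6 itself was at 44.2 FPKM in KO and 41.3 in WT. Since CRISPR edits can leave RNA levels as they are, the genotype rests on the labels alone.

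A second list of 59 interferon-stimulated genes outside the set was read in the same way. Of 49 measured, 23 had a higher FPKM in KO (46.9%, against 30.3% of all genes) and 26 a lower one, 35 stood above the median of all genes, and the median log2 ratio was -0.06, which is 0.12 above that of all genes, and it became 0.14 with the trimmed-mean factor. None passed 2-fold, 2 were at least 1.5-fold higher, where 5.7% of all genes were, and 4 at least 1.5-fold lower, where 11.4% were. With the trimmed-mean factor 9 were at least 1.5-fold higher and 3 lower. The following are named after their values were seen. The 2 higher ones were Irgm2, a relative of Igtp, at 7.58 FPKM in KO and 4.04 in WT (0.77), and Plscr1, a phospholipid scramblase, at 73.8 in KO and 43.8 in WT (0.74). On the lower side stood Ifitm3, which blocks virus entry at membranes, at 27.4 FPKM in KO and 52.0 in WT (-0.90), and the chemokine Cxcl10 at 2.28 in KO and 5.10 in WT (-0.90). The cytidine deaminase Apobec3 was at 8.45 FPKM in KO and 15.5 in WT (-0.80), and Cxcl11 at 0.56 in KO and 1.43 in WT (-0.64). The 2 lists were not tested against each other.

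**Figure D5:**
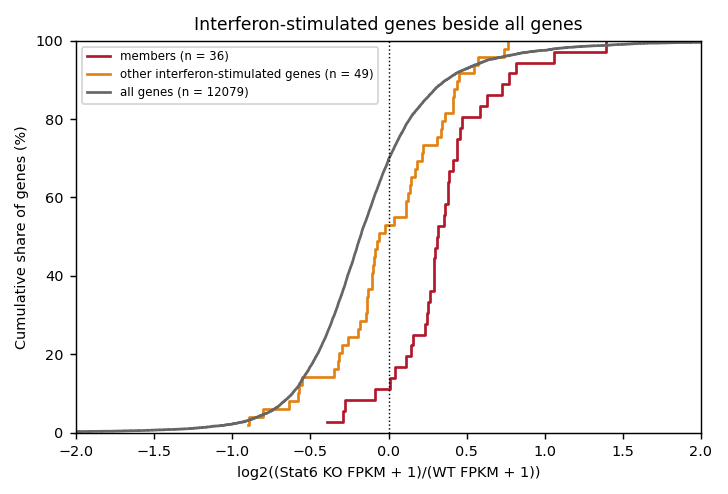
Cumulative share of genes in percent (vertical) against the log2 ratio of Stat6 KO to WT (horizontal, from FPKM + 1) for the 36 measured interferon genes, 49 measured interferon-stimulated genes outside the set, and all 12079 measured genes. At the median the curve of the set lies to the right of the others, at 0.31 against -0.06 and -0.18. The set ends at 1.39 (Oasl2), whereas all genes run on to higher values. Genes beyond 2 on either side of the axis are not drawn.

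The 2 libraries also differed in cell type markers. Enterocyte markers were higher in KO in 10 of 10 cases, where 30.3% of all genes were, with summed levels of 15374 FPKM in KO and 4329 FPKM in WT. Of 13 measured leukocyte markers 12 were lower in KO, where 69.6% of all genes were, and 9 at least 1.5-fold lower, where 11.4% were. The exception was the myeloid marker Itgam, at 1.72 FPKM in KO and 1.26 in WT. The sum over the 18 leukocyte markers found was 30.8 FPKM in KO and 63.7 in WT. The most abundant were the myeloid markers Cd68 at 6.08 FPKM in KO and 17.7 in WT, Lyz2 at 6.32 in KO and 12.6 in WT, and Cd14 at 5.01 in KO and 8.62 in WT. None of the 18 was at 0, although T cell and plasmacytoid dendritic cell markers were low, with Cd3e at 0.32 FPKM in KO and 0.39 in WT, and Siglech at 0.02 in KO and 0.05 in WT. The pan-leukocyte gene Ptprc was at 0.57 FPKM in KO and 1.43 in WT. Of 8 mesenchymal markers only 2 were measured, and both were lower in KO, as were 69.6% of all genes. Vim was at 25.6 FPKM in KO and 59.8 in WT, and Dcn at 0.88 in KO and 2.75 in WT. The other 6 stayed under 1 FPKM. Among these, Col3a1 (0.32 in both) and Pdgfra (0.05 in both) were level, and Col1a1, Col1a2, Lum and Pdgfrb slightly lower in KO. Of 6 epithelial markers 5 were lower in KO, beside 69.6% of all genes. The keratin Krt8 was at 2531 FPKM in KO and 3748 in WT, and Krt18 at 586.5 in KO and 1087 in WT. The keratin Krt20 went the other way, at 565.4 FPKM in KO and 360.6 in WT. Stem cell markers were lower in KO in 6 of 8 cases, near the 69.6% of all genes that were. Of the 8, 3 were at least 1.5-fold lower, where 11.4% of all genes were, and 0 at least 1.5-fold higher, where 5.7% were. The median log2 ratio of the 8 was -0.40, against -0.18 for all measured genes. In bulk RNA more cells of a type and more RNA per cell cannot be told apart, and the part of these shifts in the interferon gene values was not tested.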

How the data were processed

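The deposited values are FPKM per gene, per the file headers, with 1 table per library and 2 decimals. HISAT, Bowtie2, RSEM and build mm9 are named in the submitters' processing notes, without versions or roles; annotation and filters were not given in these sources. Because FPKM is relative to a library total, abundant genes that differ can shift all others, and reads of close gene copies may be shared out by estimation.

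Tables were joined on Entrez number. Genes counted as measured if either library reached 1 FPKM. The log2 ratio used a pseudocount of 1, which understates changes of low genes. With 1 library per genotype no test or p-value was computed. Depth (searched from 5000000 to 30000000 reads) and effective length (transcript length minus 36 bases) were picked to bring values of up to 5 reads within 0.1 of whole numbers, which 87.3% in KO and 86.0% in WT then were. A depth 2 times as high would serve too, and the labels state an average of 59000000 reads; intervals were also computed at both, as alternatives chosen after seeing the data. GENCODE M21 gave transcript lengths for 43 of the 44 genes. Promoter windows were matched by Entrez number, and the last bases of 35 of 38 windows lay, in the same orientation, in a GENCODE transcript of the gene.

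Members, lists and naming rule were chosen with earlier results of these data known. The rule names every member, with both values for those past 1.5-fold and the extremes of each role. Alternatives were other pseudocounts, scalings and minimum levels. Python 3.11.15, pandas 2.3.3 and scipy 1.17.1 were used. The log2 ratio, the counts past a fold and the trimmed-mean factor were tested on simulated data. Values of some listed genes are not reported here.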

Additional observations from a re-analysis of the deposited data

How the results depend on the processing

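The direction of the set held in each of 8 alternatives: its median log2 ratio stayed 0.36 to 0.60 above that of all genes. Scaling moves all genes together, so the alternatives that only rescale could hardly change this distance. With a trimmed-mean factor the median of all genes became -0.003 and that of the set 0.50, and 12 genes were at least 1.5-fold higher. Centring all genes at 0 also gave 12 such genes and a median of 0.49. With a pseudocount of 5, 1 gene was at least 2-fold higher (Oasl2) and 2 at least 1.5-fold higher, since low genes shrink. Of the 36 single genes only Ifit2 changed sign, from -0.15 to 0.09 over 7 settings, and Igtp lay past 2-fold in 7 of 8 settings and Oasl2 in 8 of 8.

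Role medians under the trimmed-mean factor and under centring were 0.60 and 0.65 (IFIT), 0.73 and 0.72 (OAS), 0.53 and 0.54 (sensors), 0.34 and 0.39 (ISG15), 0.63 and 0.62 (PARP), 0.50 and 0.52 (other antiviral genes), 0.87 and 0.85 (GTPases) and 0.34 and 0.32 (IRFs). With a pseudocount of 5 they were 0.17 (IFIT), 0.37 (OAS), 0.20 (sensors), 0.095 (ISG15), 0.21 (other antiviral genes) and 0.56 (GTPases), and with 0.1 they were 0.81 (IFIT) and 0.32 (ISG15). With no minimum level the OAS median was 0.31 and that of the GTPases 0.082, since 6 GTPases under 1 FPKM then enter. With 1 FPKM required in both libraries the IFIT median was 0.37. The IRFs, lowest otherwise, stood at 0.13 with a pseudocount of 5, above the ISG15 system, and at 0.14 with no minimum level, above the GTPases.

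For pathway genes, the median was 0.11 under both scalings, with 3 genes 1.5-fold higher under the trimmed mean and 2 under centring. A pseudocount of 5 left 0 past 1.5-fold on either side, and a minimum of 5 FPKM left 0 lower. For the other interferon-stimulated genes, the median was 0.14 under the trimmed mean and 0.12 under centring, with 9 genes 1.5-fold higher under each, and 0.072 with a minimum of 5 FPKM, so its sign depends on the setting. A pseudocount of 0.1 gave 4 genes 1.5-fold higher and 2 genes 2-fold lower, and one of 5 gave 1 gene 1.5-fold higher and 2 lower.

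No paired analysis was possible because each genotype has 1 library, and no library was left out for the same reason. Other depths were added after seeing the data, the estimate doubled and the average stated in the labels. At each, without scaling, 29 measured genes had a counting interval above 1, 4 one that held 1 and 3 one below 1. The 29 include Ifit3, Herc6 and Rsad2, whose direction the minimum level fixed. The intervals of 2 genes (Oasl2 and Igtp) lay above 2. At the estimated depth, of 7 genes under 1 FPKM with a known transcript length, 6 had a counting interval that held 1, such as Mx2 with about 6 reads in KO and 11 in WT.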
